A study of Oryza sativa with 12 samples.

Results

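The rows described here are the 149 of the 38034 rows in the deposited rice tables that are neither nuclear locus rows (Os identifiers) nor rows beginning with EPlOSAG. They fall into 4 classes by the form of their identifier: 43 begin with BAC, 73 with CAA, 19 with ENSRNA and 14 with EPlORYSAT. The working description of the set names the BAC rows as proteins of the mitochondrial genome and the set as organelle and other rows. No file pairs these identifiers with a gene, and none of the 149 matched the reference table used for names, so the origin of the rows was not checked and no member is given a gene name or role. Whole reads and row lengths recovered from the deposited values bear on it in one way. All 73 CAA rows and 36 of the 43 BAC rows had a length divisible by 3, which is the form of a coding length. Of the other classes, 4 of the 19 ENSRNA rows and 7 of the 14 EPlORYSAT rows did. Lengths are most uncertain for the 5 CAA, 2 BAC, 4 ENSRNA and 5 EPlORYSAT rows that were read in 1 library only. Other rows with few reads can also have been given too short a length. The share over all rows was not worked out.

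RNA was measured by RNA-seq in rice (Oryza sativa) shoots and roots of the mutant line osspt5-1#12 and of the wild-type cultivar Nipponbare (WT). The 4 groups were mutant shoot, WT shoot, mutant root and WT root, with 3 libraries each, and plants of both genotypes were kept in a growth chamber at 28 °C during the 15 h light period and at 24 °C during the 9 h dark period. The age of the plants is not given in the labels, the mutant is a single line, and no treatment is named. The labels number the replicates without saying whether they came from separate plants, and the p-values below therefore refer to variation from library to library, which may be technical.

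Mitochondria and plastids carry small genomes of their own, which encode subunits of the respiratory chain, of the photosynthetic complexes and of the organelles' ribosomes. These genomes are transcribed by organelle polymerases and not by RNA polymerase II, the enzyme that SPT5 proteins accompany during elongation. Plant organelle messages mostly lack a stable poly(A) tail, and copies of organelle DNA also lie in nuclear chromosomes. The sources used here do not say whether poly(A) RNA was selected or ribosomal RNA removed, nor how reads with several matches were counted. The library kit does not mark strand, so reads of overlapping rows on opposite strands cannot be told apart.

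The members took a small part of each library. Library totals recovered from the files ran from 10118483 to 15750501 reads, and the members together held 28836 reads over all 12 libraries. Of these, 19617 fell on CAA rows, 5472 on ENSRNA rows, 3436 on BAC rows and 311 on EPlORYSAT rows. Members took 0.056%, 0.0156% and 0.047% of reads in mutant shoots (libraries 1, 2 and 3), against 0.0148%, 0.0321% and 0.0195% in WT shoots. The shares were 0.0021%, 0.00712% and 0.00675% in mutant roots, against 0.0167%, 0.00189% and 0.00254% in WT roots. The median member had 35 reads over all libraries, 45 members had under 10, and only 20 were read in every library. For a row of 1 kb, a count of 3 reads equals 0.19 to 0.296 FPKM (fragments per kilobase of row length, scaled to library depth), so the values of most members lie near that floor: 109 averaged under 1 FPKM over the 12 libraries and 6 averaged 10 FPKM or more.

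The members' levels moved with 3 libraries that stood apart. These were libraries 1 and 3 of mutant shoot and library 1 of WT root, which had the lowest totals. A pair of short EPlOSAG rows that are not members took 1.88%, 2.78% and 1.62% of their reads, against 0.0248% to 0.273% in the other 9 libraries. Of the 104 members with at least 10 reads, 78 (75%) had their highest FPKM in one of these 3 libraries, against 20.1% of the 30328 rows of the whole table with as many reads. The 78 members comprised 25 of 34 BAC, 38 of 54 CAA, 9 of 10 ENSRNA and 6 of 6 EPlORYSAT rows. What sets these libraries apart was not tested, and in shoot the trait lay in mutant libraries only, so that it and the genotype cannot be fully told apart there. Where a result rests on these libraries, its value without them is given beside it.

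The classes were summed in each library. BAC rows summed to 42.5, 3.3 and 77.3 RPM (reads per 1000000 library reads) in mutant shoots, against 3.57, 5.22 and 2.86 in WT shoots. Mutant shoot library 2 lay within the range of the WT shoot libraries, while libraries 1 and 3 lay far above it. In roots the BAC sum was 8.33, 37.6 and 27.8 RPM in the mutant, against 67.1, 3.92 and 6.04 in WT, where library 1 was the highest of all root libraries.

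ENSRNA rows summed to 235, 4.06 and 86.8 RPM in mutant shoots, against 2.78, 12.4 and 4.45 in WT shoots. Their root sums were 4.1, 21.9 and 11.7 in the mutant, against 67.7, 3.33 and 4.07 in WT. In both tissues the libraries that stood apart were again the high ones. EPlORYSAT rows, the sparsest class, had 4.67, 0.698 and 8.67 RPM in mutant shoots, against 0.397, 1.27 and 0.532 in WT shoots. Their root sums were 0.694, 1.48 and 1.74 in the mutant, against 5.14, 0.148 and 0.528 in WT. As in the BAC rows, mutant shoot library 2 lay within the WT shoot range in both classes.

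CAA rows showed a step between the tissues. They summed to 277, 148 and 298 RPM in mutant shoots, against 141, 302 and 187 in WT shoots. In roots they summed to 7.92, 10.3 and 26.3 in the mutant, against 27.5, 11.5 and 14.8 in WT. Every shoot library was above every root library, and within each tissue the genotypes overlapped. The sum is carried by 3 rows described below. Without them the CAA rows had 164, 44.3 and 208 RPM in mutant shoots, against 28.8, 86.8 and 42.9 in WT shoots, and 4.1, 6.08 and 18.7 in mutant roots, against 19, 6.43 and 6.64 in WT roots. These remaining CAA rows still separated shoot from root, with libraries 1 and 3 of mutant shoot, library 1 of WT root and library 3 of mutant root high within their groups. In bulk tissue, fewer cells or organelles of a kind and less RNA in each cannot be told apart.

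**Figure D1:**
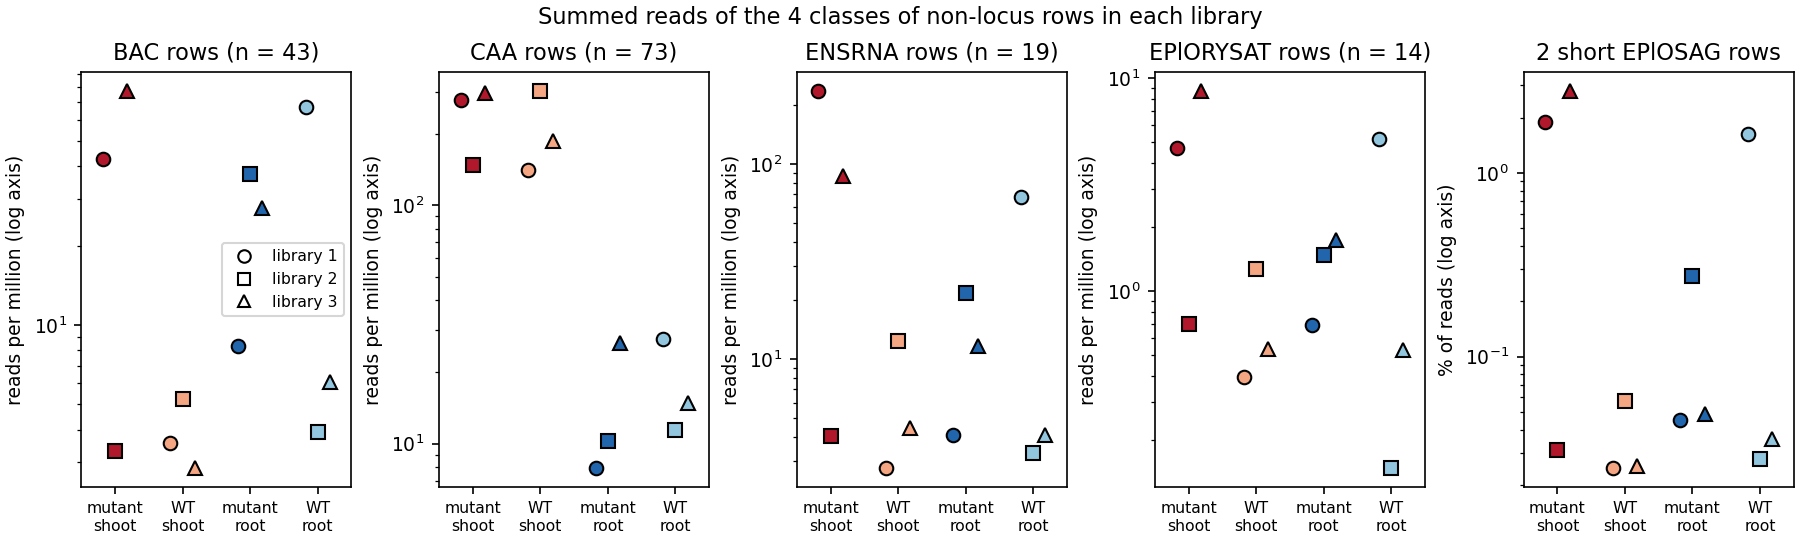
Summed RPM (log axis) of the 4 classes in each of the 12 libraries, with the share of reads taken by the 2 short EPlOSAG rows at the right. Points are single libraries, and symbols give the library number within its group. Libraries 1 and 3 of mutant shoot and library 1 of WT root are high in the BAC, ENSRNA and EPlORYSAT panels and in the EPlOSAG panel, while the CAA panel separates shoot from root.

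The difference among replicates was a property of most members and not of a few. Within mutant shoots, 74 of 87 members with 10 or more reads there (85.1%) were higher in libraries 1 and 3 than in library 2, against 38.5% of all rows so chosen, and 5 CAA rows went the other way. In WT roots, 33 of 39 members were higher in library 1 than in libraries 2 and 3, including 19 of 19 BAC rows, against 43.9% of all rows. In mutant roots, 38 of 45 members were higher in libraries 2 and 3 than in library 1, including 24 of 25 BAC rows, against 42.4% of all rows. In WT shoots, 35 of 43 were highest in library 2, against 28.7% of all rows. These libraries were picked after their values were seen, so the counts describe the libraries and carry no test.

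BAC19882 (351 bases), the BAC row with the highest mean level, shows the pattern and was chosen after its values were seen. It had 7.93, 0.362 and 17.2 FPKM in mutant shoots, against 0.188, 0.191 and 0.189 FPKM in WT shoots, where each value is a single read. Mutant roots had 0.989, 4.43 and 1.47 FPKM, against 16, 0.632 and 0.86 FPKM in WT roots. The shoot groups did not overlap, but mutant library 2 held 2 reads, and the difference did not pass the test (log2 fold change 2.35, SE 1.00, limma adjusted p = 0.177).

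The members with the highest levels were 3 CAA rows. CAA33951 (192 bases), CAA34009 (189 bases) and CAA33954 (246 bases) averaged 170, 104 and 62.9 FPKM over the 12 libraries, and together they held 30.1% to 79.6% of the CAA reads of a shoot library. That share was 41%, 70% and 30.1% in mutant shoots, against 79.6%, 71.3% and 77.1% in WT shoots. It was lowest in mutant libraries 1 and 3, in which the other 70 CAA rows were high, while mutant library 2 lay just under the WT range. Without the 3 leading rows, the CAA rows of mutant shoots summed to 198 ± 94.4 FPKM, against 72.1 ± 34.3 FPKM in WT shoots (SD, n = 3 each), and the groups overlapped (exact permutation test, two-sided, p = 0.2, where 3 against 3 cannot give less than 0.1). Mutant library 2 alone had 90.1 FPKM, within the WT shoot range of 44.7 to 111 FPKM.

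Of the 10 highest members, 4 were ENSRNA rows, led by ENSRNA049471043 (319 bases). It had 643, 0.199 and 57.6 FPKM in mutant shoots, against 0, 0.21 and 0.208 FPKM in WT shoots. The values correspond to 2505, 1 and 195 reads, against 0, 1 and 1 reads. One mutant library therefore held most of the row's 2781 reads, another matched WT, and the difference was not called (log2 fold change 4.97, SE 1.87, limma adjusted p = 0.127). In roots it had 0.653, 3.25 and 0.202 FPKM in the mutant, against 18.6, 0 and 0 FPKM in WT.

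ENSRNA049471778 (532 bases) had 15.1, 0.955 and 30.3 FPKM in mutant shoots, against 1.24, 1.76 and 0.625 FPKM in WT shoots. Its root values were 2.61, 20.7 and 5.57 FPKM in the mutant, against 59.3, 3.61 and 3.4 FPKM in WT, so its highest value of all was in WT root library 1. ENSRNA049471882 (880 bases) followed the same libraries, with 8.66, 0.721 and 18.2 FPKM in mutant shoots and 0.676, 0.913 and 0.378 FPKM in WT shoots. ENSRNA049466338 (372 bases) had 23.3, 4.95 and 62.3 FPKM in mutant shoots, against 2.84, 18.5 and 5.72 FPKM in WT shoots. None of ENSRNA049471778, ENSRNA049471882 and ENSRNA049466338 differed between genotypes past the threshold in either tissue.

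The remaining rows among the 10 highest were CAA34004, CAA33973 and CAA33957. CAA34004 (1434 bases) had 20.1, 4.38 and 33.1 FPKM in mutant shoots, against 4.1, 23.7 and 8.2 FPKM in WT shoots, so each genotype had high and low libraries. CAA33973 (1527 bases) had 31, 3.87 and 35.3 FPKM in mutant shoots, against 2.08, 7.54 and 4.05 FPKM in WT shoots. For CAA33973, mutant library 2 lay inside the WT range and the difference was not called (log2 fold change 1.80, SE 0.77, limma adjusted p = 0.178).

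**Figure D2:**
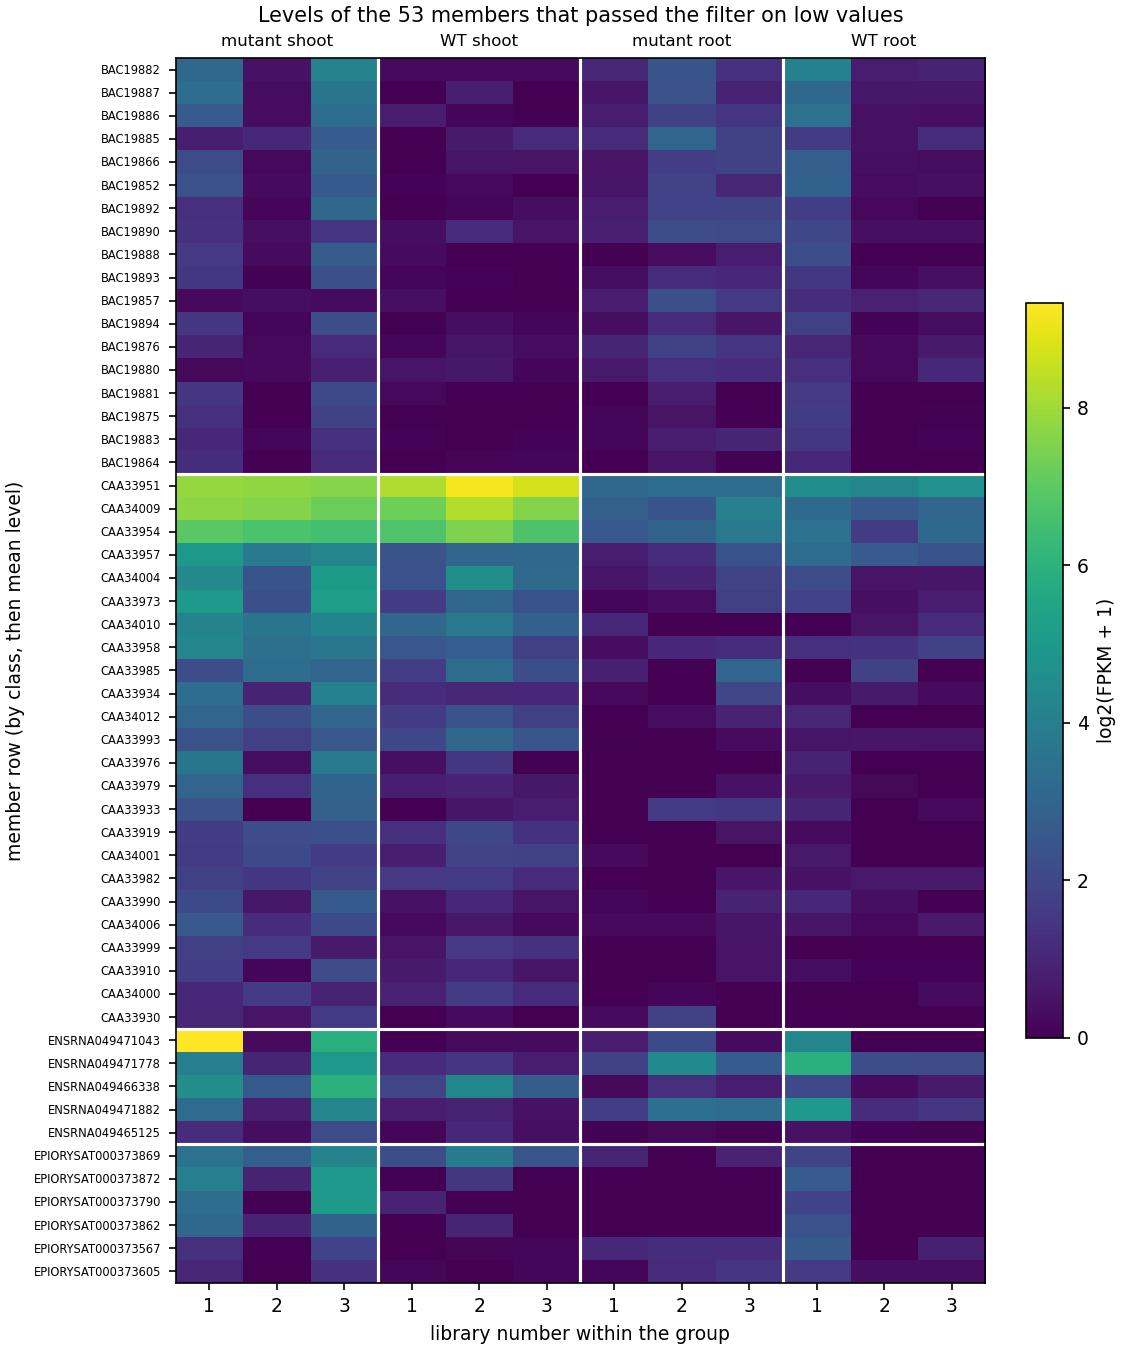
Levels, as log2(FPKM + 1), of the 53 members that reached 1 FPKM in 3 or more libraries, ordered by class and mean level, in the 12 libraries grouped by tissue and genotype. The 3 leading CAA rows are bright in every shoot library. Most ENSRNA and EPlORYSAT rows are bright mainly in libraries 1 and 3 of mutant shoot and library 1 of WT root. BAC rows are bright there and also in mutant root libraries 2 and 3.

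For the comparison of genotypes, 53 of the 149 members passed the filter on low values (18 BAC, 24 CAA, 5 ENSRNA and 6 EPlORYSAT rows) and 96 did not. The filter itself leaned on a few libraries: 27 of the 53, among them 14 of the 18 BAC rows, would not have passed without the 3 libraries that stood apart. Counts over the 53 are therefore descriptions.

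The share of members called between mutant and WT shoots was near that of the whole table. Of the 53 tested, 3 were higher in mutant shoots (CAA33979, CAA34006 and CAA33958) and 1 was lower (CAA33951) at a limma adjusted p under 0.05. Over the whole table, 9.50% of rows were called in shoot, 4.80% higher and 4.69% lower, so the members' share is near that background. An unadjusted limma p under 0.05 was found for 17 of the 53 members, against 6291 of the 25337 rows tested. Groups of libraries did not overlap for 8 members that were higher and 1 that was lower, against 23.9% and 15.0% of all rows tested. The median log2 fold change of the 53 was 0.99, against 0.13 for all rows tested, and 0.43 over all 149 members without the filter, against 0.04 for all rows. With mutant shoot libraries 1 and 3 left out, no member was called, against 1.67% of all rows, so the count of 0 is near the background. By the same fit 2 members had an unadjusted p under 0.05, against 10.5% of all rows; the median of the 53 was then -0.00151, against 0.10 for all rows. That fit takes the single mutant shoot library left to vary like the other groups. Leaving out mutant shoot library 2 gave 15 of the 53 members higher and none lower, against 2.47% and 2.96% of all rows. Mutant shoot libraries 1 and 3 are among the 3 libraries without which 27 of the 53 would not have passed the filter. This count and the median of 0.99 are therefore not independent of the filter and carry no test. Median-ratio scaling moved the whole table's split of calls to 793 higher and 1576 lower, against 1217 and 1189, and its median to -0.01, but again called 3 members higher and 1 lower.

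CAA33951, the member with the highest mean level, fell in mutant shoots. It had 228, 217 and 199 FPKM in mutant shoots, against 298, 586 and 426 FPKM in WT shoots. All 3 mutant libraries were below all 3 WT libraries, and the mutant libraries, including 1 and 3, lay close together while the WT libraries spread. The mean was 214 ± 14.7 FPKM in mutant shoots and 437 ± 144 FPKM in WT shoots (SD, n = 3 each), a log2 fold change of -0.97 (limma, SE 0.22, adjusted p = 0.0204) from 405 to 655 reads per mutant library and 866 to 1681 per WT library. The call was lost without any one mutant shoot library, without WT shoot library 2 or 3, or when the shoot groups were fitted alone, with adjusted p of 0.0575 to 0.0782, and the log2 fold change was then -0.73 to -1.02. Without both mutant libraries 1 and 3 it was -0.95 (adjusted p = 0.348).

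CAA34006 (402 bases) rose in mutant shoots from a low level. It had 5.09, 1.26 and 3.28 FPKM in mutant shoots, against 0.164, 0.5 and 0.165 FPKM in WT shoots, that is 25, 8 and 14 reads against 1, 3 and 1. The groups did not overlap, and mutant library 2 was the lowest of its group. The log2 change in the mutant was 1.62 (limma, SE 0.32, adjusted p = 0.0103), and it stayed past the threshold when any single library was left out. The row reached 1 FPKM in the 3 mutant shoot libraries only, so it passed the filter through the group in which it is high. Without the filter the adjusted p was 0.0133. With both mutant shoot libraries 1 and 3 left out, the log2 fold change was 0.84 (limma adjusted p = 0.33).

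CAA33979 (1014 bases) had 7.27, 1.38 and 7.06 FPKM in mutant shoots, against 0.717, 0.858 and 0.524 FPKM in WT shoots. The groups did not overlap, though mutant library 2 stood nearer to WT than to the other mutant libraries. The log2 change in the mutant was 1.68 (limma, SE 0.42, adjusted p = 0.0322), and 0.49 (adjusted p = 0.745) without mutant libraries 1 and 3. This row too reached 1 FPKM in the 3 mutant shoot libraries only and passed the filter through them, and its adjusted p without the filter was 0.0455. The call was lost without any one WT shoot library (log2 fold change 1.60 to 1.74, adjusted p = 0.0561 to 0.104), without mutant library 1 or 3 alone (1.37 and 1.39, adjusted p = 0.128 and 0.124) and without WT root library 2 (1.68, adjusted p = 0.0509). It was lost as well with the shoot groups fitted alone (1.68, adjusted p = 0.0906), with a pseudocount of 0.1 (2.44, adjusted p = 0.13) and with limma-voom (2.44, adjusted p = 0.141).

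CAA33958 (558 bases) rose more evenly over the mutant libraries. It had 18.6, 9.9 and 11.8 FPKM in mutant shoots, against 4.86, 5.88 and 2.38 FPKM in WT shoots, without overlap and with mutant library 2 well above every WT library. The log2 change in the mutant was 1.44 (limma, SE 0.35, adjusted p = 0.0264). Without mutant libraries 1 and 3 the log2 fold change was 1.08 from the remaining mutant library, no longer called (adjusted p = 0.509), and the call was lost too without mutant library 1 (1.20, adjusted p = 0.112), mutant library 3 (1.51, adjusted p = 0.0679) or WT shoot library 3 (1.14, adjusted p = 0.101). It was lost as well with a pseudocount of 0.1 (1.64, adjusted p = 0.0952) and with the shoot groups fitted alone (1.44, adjusted p = 0.0521).

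The summed level of the members did not separate the genotypes in shoot. All 149 rows summed to 1600, 625 and 1093 FPKM in mutant shoots, against 615, 1232 and 806 FPKM in WT shoots. The groups overlapped, and the mean log2 difference was 0.28 (exact permutation test, two-sided, p = 0.6). It was -0.04 without mutant library 1 and -0.44 without libraries 1 and 3. Without CAA33951, the highest member, it was 0.90 (exact permutation test, p = 0.2). For summed BAC rows the mean log2 difference was 2.67, and the groups also overlapped (exact permutation test, p = 0.2). The arithmetic means of these sums, a different average, were 52.4 ± 47.1 FPKM in mutant shoots and 4.82 ± 1.63 FPKM in WT shoots (SD, n = 3 each). Mutant library 2 alone had 4.94 FPKM of BAC rows, within the WT shoot range of 3.57 to 6.66 FPKM.

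In roots, 1 of the 53 members changed in the mutant, and it was again CAA33951. The whole table had 7.00% of rows called in root, 2.63% higher and 4.37% lower. Groups did not overlap for 4 members, all lower in mutant roots, against 11.6% of all rows tested, and for no member that was higher, against 12.3%. The 4 were CAA33951, CAA33957, CAA33958 and CAA33993, the last named after its values were seen. By limma, 3 members (5.66%) had an unadjusted p under 0.05 in root, against 24.3% of all rows tested. The median log2 fold change of the 53 was -0.05, against 0.06 for all rows tested, and 0.34 when WT root library 1 and the 2 mutant shoot libraries were left out, against 0.09 for all rows. In that fit no member was called, 8 members (15.1%) had an unadjusted p under 0.05, and 1.20% of all rows were called, with 16.0% at an unadjusted p under 0.05.

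CAA33951 had 7.59, 8.87 and 8.72 FPKM in mutant roots, against 22.6, 18.5 and 25.5 FPKM in WT roots. The groups did not overlap, and WT root library 1, which was high for most members, was not the highest of its group here. The means were 8.4 ± 0.7 FPKM in mutant roots and 22.2 ± 3.55 FPKM in WT roots (SD, n = 3 each), with a log2 fold change of -1.30 (limma, SE 0.22, adjusted p = 0.00699). These levels rest on 21, 23 and 26 reads in mutant roots, against 44, 48 and 65 reads in WT roots. The call held when any single library was left out, and was lost with limma-voom on the recovered reads (log2 fold change -1.38, adjusted p = 0.11) and without the 3 libraries that stood apart (-1.28, adjusted p = 0.111). The effects on CAA33951 in root and shoot were not shown to differ (difference -0.33, SE 0.31, limma adjusted p = 0.67).

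CAA33951 was also lower relative to the next highest CAA rows of the same library, a measure chosen after the values were seen and free of the scaling between libraries. The ratio of its FPKM to that of CAA34009 was 1.08 to 1.32 in mutant shoots, against 1.93 to 2.2 in WT shoots. In roots it was 0.556 to 2.06 in the mutant, against 2.71 to 3.63 in WT. Relative to CAA33954 the ratio was 1.86 to 2.14 in mutant shoots, against 2.79 to 4.08 in WT shoots, and 0.709 to 1.58 in mutant roots, against 2.17 to 8.79 in WT roots. Neither ratio overlapped between genotypes within a tissue, and no test is given for a measure chosen in this way. The root ratios rest on few reads. CAA33951, CAA34009 and CAA33954 together held 55, 57 and 119 reads in mutant roots, against 86, 68 and 108 in WT roots. The ratio of 8.79 came from WT root library 2, the WT root library with the fewest of these reads. A ratio shows unequal change of the rows and not which of them changed.

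CAA34009 and CAA33954 themselves were not called between genotypes. CAA34009 had 210, 195 and 151 FPKM in mutant shoots, against 152, 304 and 194 FPKM in WT shoots, with a log2 fold change of -0.18 (95% interval -1.04 to 0.69). CAA33954 had 123, 101 and 92.7 FPKM in mutant shoots, against 107, 183 and 104 FPKM in WT shoots, with a log2 fold change of -0.27 (95% interval -1.28 to 0.74). Both overlapped between genotypes in shoot, and these intervals also hold the shoot change of CAA33951. In roots the groups overlapped too. The root log2 fold change was 0.15 (95% interval -0.71 to 1.02) for CAA34009 and 0.33 (95% interval -0.68 to 1.34) for CAA33954. The root intervals do not hold the root change of CAA33951, -1.30, but the rows were not tested against each other.

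**Figure D3:**
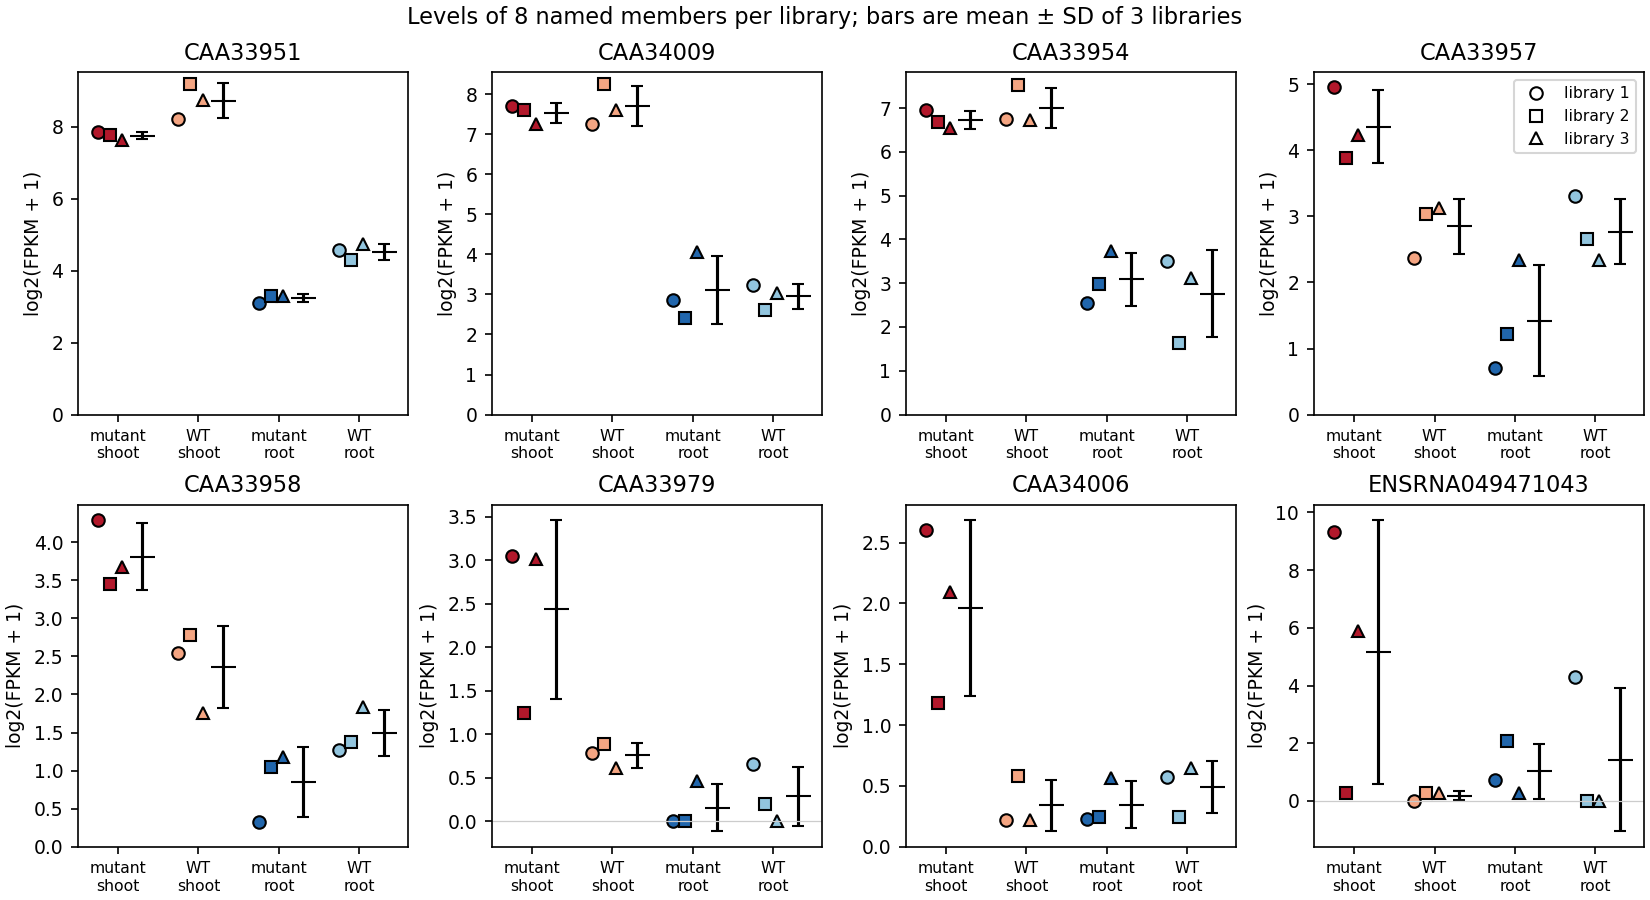
Levels of 8 named members, as log2(FPKM + 1), in each library of mutant shoot, WT shoot, mutant root and WT root, with bars for the mean ± SD of 3 libraries and symbols for the library number. CAA33951 is lower in the mutant in both tissues, whereas CAA34009 and CAA33954 overlap between genotypes and separate by tissue only. ENSRNA049471043 is high in libraries 1 and 3 of mutant shoot and library 1 of WT root.

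For 2 of the 53 members, CAA33957 and CAA33958, the effect of the mutant in root was more negative than that in shoot, and for none was it more positive. Of all rows tested, 3.52% were called for this difference, 1.98% more negative and 1.55% more positive in root, so 2 of 53 is near the background. CAA33957 (111 bases) had 30.3, 13.7 and 17.8 FPKM in mutant shoots, against 4.17, 7.24 and 7.78 FPKM in WT shoots. In roots it had 0.626, 1.33 and 4.06 FPKM in the mutant, against 8.9, 5.33 and 4.08 FPKM in WT. Mutant libraries were all above WT in shoot and all below WT in root, the closest by 4.06 against 4.08 FPKM. Neither effect alone was called (shoot log2 fold change 1.51, limma adjusted p = 0.0573, and root -1.35, adjusted p = 0.093), while their difference was (-2.86, SE 0.63, limma adjusted p = 0.0331). Root levels of this short row rest on 1, 2 and 7 reads in the mutant, against 10, 8 and 6 reads in WT.

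CAA33958 had 0.249, 1.06 and 1.27 FPKM in mutant roots, against 1.42, 1.59 and 2.57 FPKM in WT roots, from 2 to 11 reads against 8 to 19. The root groups did not overlap but the root effect was not called (log2 fold change -0.64, SE 0.35, limma adjusted p = 0.285). The difference from the shoot effect was -2.09 (SE 0.49, limma adjusted p = 0.0445). Both differences lost the call without mutant shoot library 1 or 3, with a log2 difference of -2.56 to -2.92 for CAA33957 and -1.84 to -2.15 for CAA33958, and also without WT shoot library 1 or 3, WT root library 1 or 2, or mutant root library 2. That for CAA33957 was also lost without WT shoot library 2, and that for CAA33958 without mutant shoot library 2 or WT root library 3. With mutant shoot libraries 1 and 3 both left out, only 1 mutant shoot library remained. The difference was then -2.38 for CAA33957 and -1.73 for CAA33958. With WT root library 1 left out as well, it was -2.11 for CAA33957 and -1.84 for CAA33958.

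**Figure D4:**
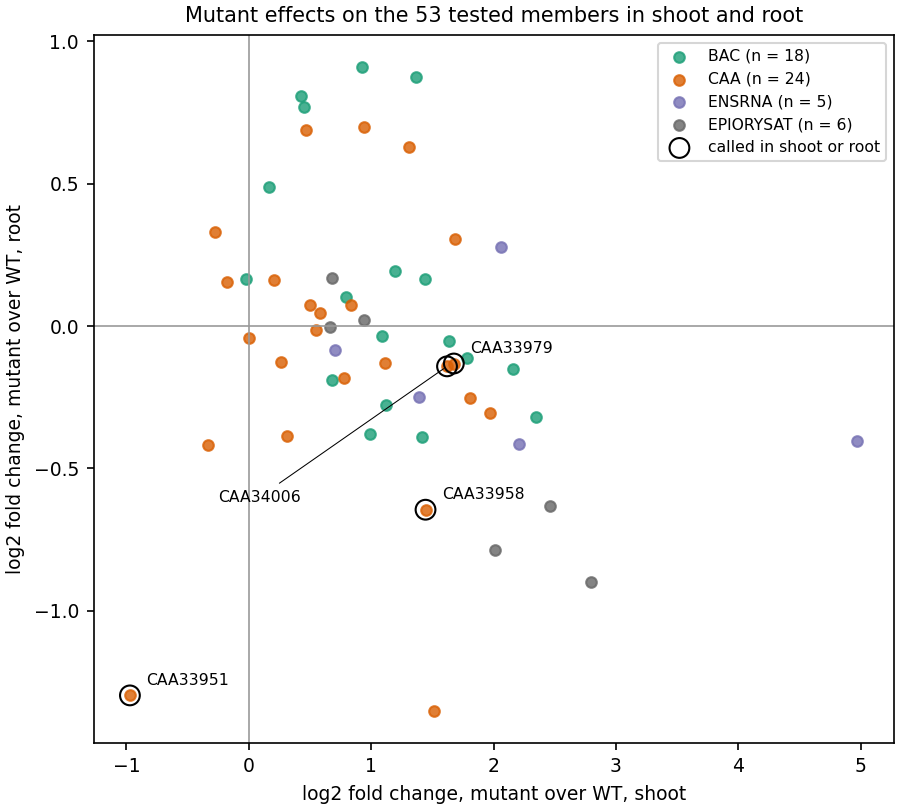
Log2 fold changes, mutant over WT on the log2(FPKM + 1) scale, of the 53 tested members in shoot (horizontal) and root (vertical), coloured by class, with circles around members called in either tissue. Most members lie right of zero in shoot and near zero in root, and CAA33951 lies at -0.97 in shoot and -1.30 in root.

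The tissues differed for the CAA rows far more than the genotypes did. In WT, 13 of the 53 tested members were lower in root than in shoot and none was higher by limma, 12 of them CAA rows and the other EPlORYSAT000373869. Under some alternatives, listed in the last section, 1 member was called higher in WT root. Of all rows tested, 34.3% were called, 17.8% higher in WT root and 16.5% lower. Groups did not overlap for 15 members that were lower in WT root and 6 that were higher, against 23.0% and 30.2% of all rows tested. The 15 comprised 14 CAA rows and 1 EPlORYSAT row, while the 6 comprised 3 BAC, 2 ENSRNA and 1 EPlORYSAT row. Summed CAA levels were 55.5 ± 14.9 FPKM in WT root and 857 ± 298 FPKM in WT shoot (SD, n = 3 each). By mean log2 values the sums were 15.2-fold lower in root, without overlap (exact permutation test, two-sided, p = 0.1). Without the 3 leading rows the remaining CAA rows were 3.61-fold lower in WT root (exact permutation test, p = 0.1).

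CAA34009 had 8.37, 5.09 and 7.19 FPKM in WT roots, against 152, 304 and 194 FPKM in WT shoots. Every root library was far below every shoot library, a log2 difference of -4.75 (limma, SE 0.39, adjusted p = 7.26e-06). CAA33954 had 10.4, 2.1 and 7.67 FPKM in WT roots, against 107, 183 and 104 FPKM in WT shoots, with a log2 fold change of -4.24 (limma, SE 0.46, adjusted p = 3.96e-05). For CAA33951 the log2 change in WT root was -4.19 (limma, SE 0.22, adjusted p = 3.8e-07). All 3 kept their direction and their call under each alternative tried. Among the 10 highest members, CAA33957 and CAA33973 were CAA rows not called between the WT tissues. CAA33973 had a log2 fold change of -1.36 with overlap (limma adjusted p = 0.206). CAA33957 had 6.1 ± 2.5 FPKM in WT root and 6.4 ± 1.95 FPKM in WT shoot (SD, n = 3 each) and a log2 fold change of -0.08 (95% interval -1.05 to 0.90).

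The other called members were lower in WT root from smaller levels in shoot, and CAA33999 and EPlORYSAT000373869 are named here after their values were seen. CAA33999 had no read in any WT root library, against 1.3 FPKM on average in WT shoots, and CAA34004 averaged 1.44 FPKM in WT root and 12 FPKM in WT shoot. EPlORYSAT000373869 (72 bases) had 2.75, 0 and 0 FPKM in WT roots, against 3.67, 13 and 4.62 FPKM in WT shoots, from 2 reads in all WT root libraries and 23 in the WT shoot libraries. The BAC rows had no such step: their sum was 31.9 ± 42.9 FPKM in WT root and 4.82 ± 1.63 FPKM in WT shoot (SD, n = 3 each), with overlap (exact permutation test, p = 0.2), and WT root library 1 alone reached 81.4 FPKM.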

How the data were processed

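Each library had 1 deposited table of FPKM values by row, per the file headers. Genome build IRGSP-1.0 and the tools HTSeq 0.6.0, HISAT2 2.1.0 and Bowtie2 2.2.3 are listed in the submitters' processing notes, with no role or order. Annotation release and filters: not given in the sources used here. A row missing from the files of a tissue was set to 0 there (26 members were in shoot files only and 6 in root files only). Whole reads, row lengths and library totals were recovered from the steps of the FPKM values (tolerance 0.002 reads, 100% of rows), taking the smallest whole length. The 16 members read in 1 library therefore have uncertain reads and lengths, and other members with few reads may have too. Floors and intervals cover counting or replicate error only.

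Tests used limma 3.58.1 in R 4.3.3 (limma-trend, 2-sided, Benjamini-Hochberg over the 25337 rows reaching 1 FPKM in 3 or more libraries, threshold 0.05) on log2(FPKM + 1), with all 12 libraries and a mean per group. Fold changes on this scale understate changes of low rows. Sums over members were compared with exact permutation tests. The read recovery, and a fit of mutant against WT within a tissue, were tried on simulated data. Changes were planted there only in rows of higher counts than most members have, and no library was made to stand apart. The simulation therefore does not cover low members or such libraries. Members without annotation were named by a rule: the 10 highest by mean FPKM, at most 2 called members per contrast and direction with the largest log2 fold change, and the 2 called for the difference between tissues; others are said to be named after their values were seen. Members, lists and the libraries left out were chosen with earlier results of these data known. Alternatives covered the pseudocount, filter, scaling, replicate block, groups fitted, limma-voom on recovered reads, and leaving out libraries. The reference table (39387 entries) was used for names only, and the level of the mutated gene was not analysed here.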

Additional observations from a re-analysis of the deposited data

Results flagged for a closer look

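CAA33957 and CAA33958 were picked out because the mutant effect differed between the tissues by a test of the difference itself. The effect in root minus that in shoot was -2.861 for CAA33957 and -2.089 for CAA33958 on the log2(FPKM + 1) scale (limma adjusted p = 0.0331 and 0.0445). Of all rows tested, 3.52% were called for this difference, so 2 of 53 members is near that share. The call was lost in 14 of 21 alternatives for CAA33957 and in 17 of 21 for CAA33958. Both rows were higher in all 3 mutant shoot libraries and lower in all 3 mutant root libraries than in any WT library of the same tissue. The part of read sampling in these low rows, and of the mutant shoot libraries that stood apart, was not tested. Groups of 3 libraries are too small for the check on single outlying samples.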

How the results depend on the processing

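The 4 calls in shoot became 2 with a pseudocount of 0.1, 2 with a filter at 5 FPKM and 2 with the shoot groups fitted alone. They became 0 without mutant shoot libraries 1 and 3, and 0 when WT root library 1 was also left out, both chosen after seeing the data; leaving out 1 library gave 1 to 15. The 1 call in root became 2 without a filter, 0 with limma-voom and 0 without the 3 libraries, with 1 to 2 when 1 library was left out. The 2 calls for the difference between tissues became 0 with the smaller pseudocount, without a filter, with limma-voom, with the replicate block and without the 2 or the 3 libraries, 1 with the stricter filter or median-ratio factors, and 0 to 5 when 1 library was left out. The 13 calls between WT root and WT shoot became 6 with the stricter filter, which fewer members pass, and 10 to 14 when 1 library was left out. They became 16 with the WT groups fitted alone. In that fit 1 member was called higher in WT root. The same count was higher with a pseudocount of 0.1, without a filter, with median-ratio factors, and with scaling to the locus rows. It was also found with limma-voom and without mutant root library 1 or 2. Apart from the stricter filter, the cause of each change was not tested. The summed shoot difference of 0.28 became -0.44 without the 2 libraries and lay between -0.04 and 0.64 when 1 library was left out; the root one, -0.22, lay between -0.71 and 0.53. None of the 10 log2 values recomputed for named members (4 in shoot, 1 in root, 2 for the difference and 3 between WT tissues) changed sign. Scaling to the locus rows gave 1745 rows of the whole table higher and 1085 lower in shoot, and 5 members called.

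Same-numbered libraries deviated together weakly or not at all (correlations of -0.274 to 0.185), so the numbers were not taken to pair the libraries. With the replicate block, 3 members were called in shoot (CAA33958 was not, adjusted p = 0.0611), 1 in root and 12 between WT tissues. Depth limits the low rows most: 96 of 149 members were not tested.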
